A study of Mus musculus with 4 samples.

Results

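Bile acid synthesis in liver was followed through 10 genes, namely the cytochromes P450 Cyp7a1, Cyp8b1, Cyp27a1, Cyp7b1 and Cyp39a1, the reductase Akr1d1, the conjugating enzymes Slc27a5 and Baat, the repressor Nr0b2 and the nuclear receptor Nr5a2. A probe set is a group of short oligonucleotides against one stretch of transcript, and every probe set whose deposited gene name was one of these 10 was taken. This gave 16 of the 45037 probe sets tested on the Affymetrix MOE430 v2 array, and 10 of its 19504 named genes. Nr5a2 had 3 of them, Cyp7a1, Cyp7b1, Akr1d1 and Baat had 2 each, and the other genes had 1. The arrays held total liver RNA from male mice aged 6 weeks, with 2 arrays of Tm7sf2-KO and 2 arrays of WT. The knockout lacks the product of Tm7sf2, a membrane-bound sterol reductase of cholesterol synthesis, and had been backcrossed to C57Bl/6, the strain given for both genotypes. Nothing in the sources used here says whether the 2 arrays of a genotype came from separate animals, whether RNA was pooled, or at what hour the livers were taken. The p-values below thus rest on array-to-array spread alone, and that spread may be technical.

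Bile acids are made from cholesterol in hepatocytes along a pair of routes. The classic route opens with Cyp7a1 and the acidic route with Cyp27a1 followed by Cyp7b1, after which the ring is reduced, the side chain is shortened and the product is joined to an amino acid. When bile acids return to the liver they activate the receptor FXR, which induces Nr0b2. Nr0b2 has no DNA-binding domain and represses Cyp7a1 and Cyp8b1 by binding Nr5a2, the liver receptor homologue that activates both genes.

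Nr5a2 binds DNA at a short element with the core TCAAGG or CAAGGNCA, and the stretches upstream of Nr0b2 and Cyp8b1, which hold such letters, are shown. The stretch upstream of Akr1d1 also holds a match but is not shown. The windows are the 250 bases before the RefSeq transcription start in assembly GRCm38.p6. They were available for 5 of the 10 genes, Nr0b2, Cyp8b1, Nr5a2, Cyp27a1 and Akr1d1, with a pair of starts for Nr5a2. Capitals mark each match to TCAAGG or CAAGGNCA on either strand, and the 2 motifs overlap wherever a T precedes CAAGGNCA.
Nr0b2, chr4:133553126-133553375, plus strand: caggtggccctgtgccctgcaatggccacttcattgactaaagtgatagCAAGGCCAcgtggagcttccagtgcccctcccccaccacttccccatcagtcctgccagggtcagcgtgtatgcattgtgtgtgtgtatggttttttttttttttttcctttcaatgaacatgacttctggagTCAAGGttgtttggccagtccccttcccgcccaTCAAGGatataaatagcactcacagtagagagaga
Cyp8b1, chr9:121916306-121916555, minus strand: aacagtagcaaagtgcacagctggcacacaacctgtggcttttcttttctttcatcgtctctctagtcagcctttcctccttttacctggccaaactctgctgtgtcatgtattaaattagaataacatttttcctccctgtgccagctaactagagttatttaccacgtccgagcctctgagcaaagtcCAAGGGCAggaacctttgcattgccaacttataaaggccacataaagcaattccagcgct

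The Nr0b2 window held TCAAGG at 68 and 35 bases before the start and CAAGGCCA at 201 bases before it. The Cyp8b1 window held CAAGGGCA at 60 bases before the start. TCAAGG was present in 12.5% of 32851 such windows over all genes, and 0.922% held it at least 2 times. CAAGGNCA was present in 5.53%. The Akr1d1 window held 1 TCAAGG on the opposite strand, and neither motif was found in the Cyp27a1 window or in either Nr5a2 window. A match is a run of letters and not a measured binding site. The clock element TTATGTAA, found in 0.819% of all windows on either strand, was in none of the 6 windows of these genes.

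Values are log2 expression as deposited, each change is Tm7sf2-KO minus WT, and SE, 95% confidence interval and adjusted p come from limma with Benjamini-Hochberg adjustment over all 45037 probe sets. Rose and fell are used of probe sets past both thresholds of the study's methods, an adjusted p under 0.05 (5% FDR, the false discovery rate) and a log2 change of 0.5 or more in either direction, which is the fold threshold. Over all probe sets 0.706% passed both, 0.38% higher and 0.326% lower in Tm7sf2-KO. Of the 16 bile acid probe sets 5 passed (31.2%), of which 3 fell and 2 rose. They belonged to 4 genes, Cyp7b1, Nr0b2, Nr5a2 and Cyp7a1. The 10 genes were chosen with earlier results of these data known, so this share is not a test of them. The median change of the 16 was 0.23, beside 0.01 for all probe sets. Tm7sf2 itself read 7.47 and 7.55 in Tm7sf2-KO, against 10.25 and 10.27 in WT at 1 probe set (change -2.75, limma adjusted p = 1.65e-06), and 7.50 and 7.54 in Tm7sf2-KO, against 7.46 and 7.49 in WT, at its other one. All 16 bile acid probe sets lay above 6.66, the median level of all probe sets. Hybridization and poly-A control transcripts added to the samples read 0.364 higher on the Tm7sf2-KO arrays, and setting the arrays level on these controls moved the median change of all probe sets to -0.36. Each change is therefore relative to the bulk of probe sets. The 3' minus 5' difference of control transcripts, a sign of RNA integrity, was larger in Tm7sf2-KO by 0.183 for actin, 0.124 for Gapdh and 0.327 for pyruvate carboxylase, and smaller by 0.147 for the transferrin receptor (change -0.147), and its part in the results was not tested.

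**Figure D1:**
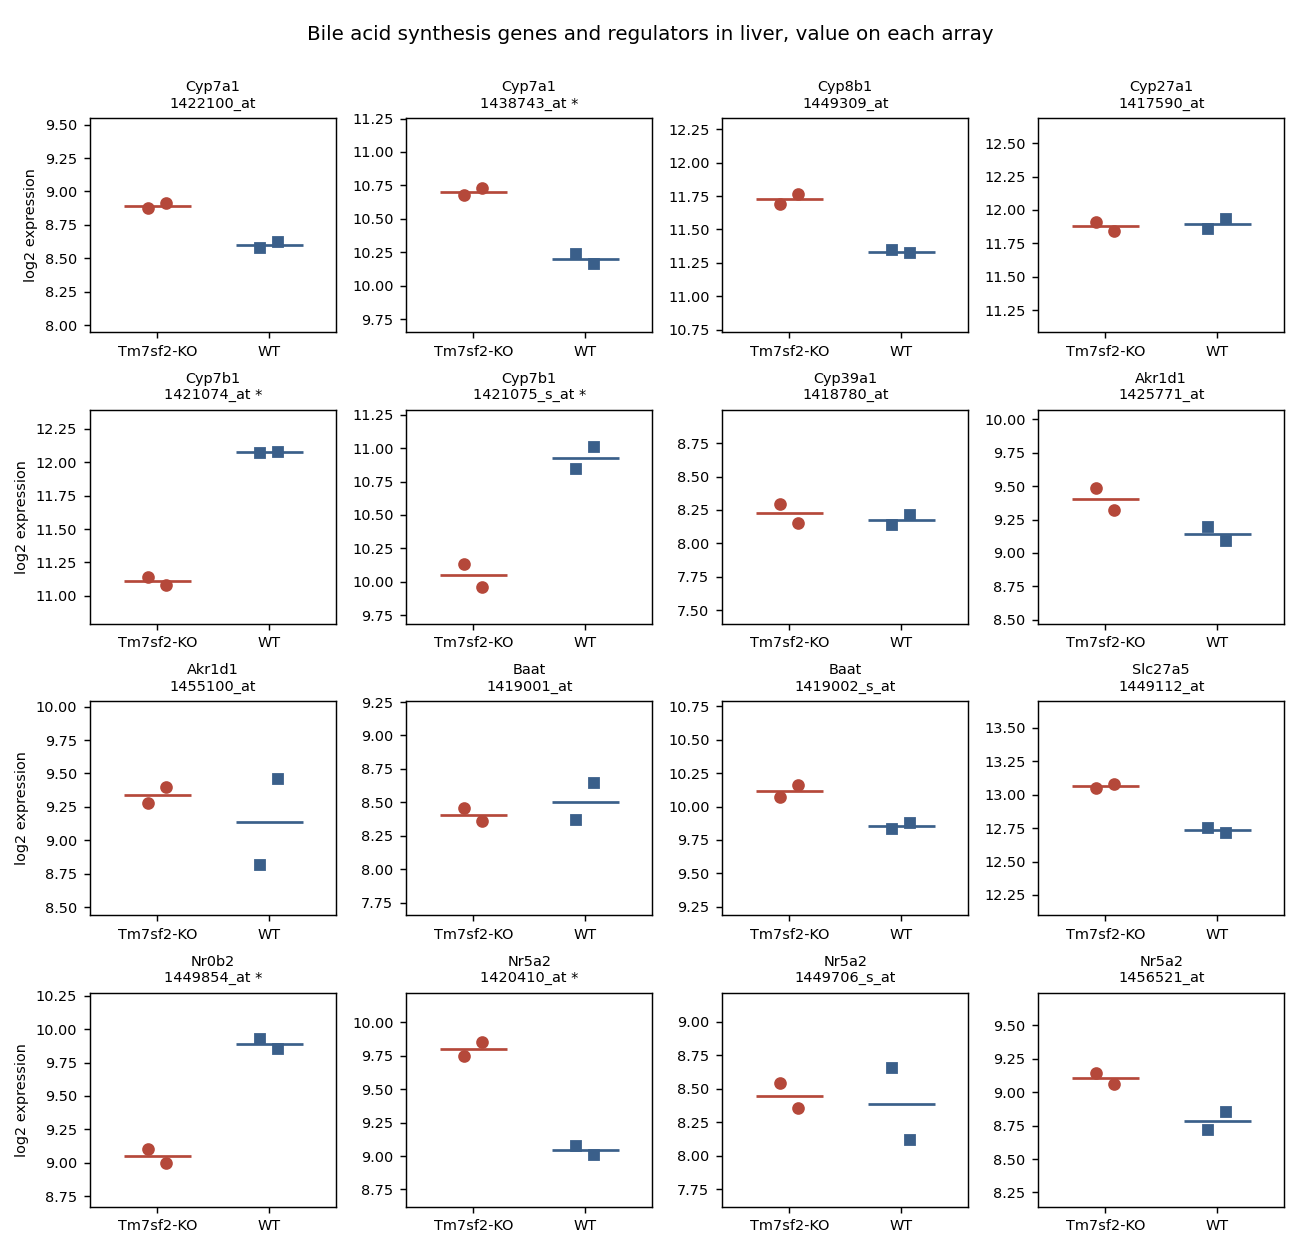
Log2 expression of the 16 probe sets on each array, Tm7sf2-KO (circles) left of WT (squares), with replicate 1 left of replicate 2 and a line at each mean (n = 2 arrays). Every panel spans the same log2 range, and an asterisk marks the 5 probe sets past both thresholds; Cyp7b1 and Nr0b2 lie lower in Tm7sf2-KO, and Nr5a2 1420410_at and Cyp7a1 1438743_at lie higher.

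Cyp7b1 showed the largest change of the 10 genes. It encodes the oxysterol hydroxylase of the acidic route and is known as a male-biased gene of mouse liver. Probe set 1421074_at read 11.14 and 11.08 in Tm7sf2-KO livers, against 12.07 and 12.08 in WT livers. The genotypes were separated by 0.930 between their nearest arrays, while the replicates of each differed by far less. Cyp7b1 averaged 11.11 ± 0.04 in Tm7sf2-KO and 12.07 ± 0.01 in WT (SD, n = 2 each). The change was thus -0.96, or 1.95-fold lower (SE 0.08, 95% confidence interval from -1.14 to -0.79, adjusted p = 5.06e-04 in limma). It was the 25th deepest fall among the 45037 probe sets. The second probe set of the gene, 1421075_s_at, read 10.13 and 9.96 in Tm7sf2-KO, against 10.84 and 11.01 in WT, and fell by 0.88 (SE 0.09, 95% confidence interval from -1.09 to -0.66, adjusted p = 0.0028 in limma). The intervals of the 2 probe sets overlapped, and no array of one genotype reached into the other at either. The suffix _s_at marks a probe set whose oligonucleotides can match more than one transcript.

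Of 8 male-biased liver genes listed, Cyp4a12a was not found under its name and 7 were measured. Of these 7, Cyp7b1 among them, 2 fell and none rose (28.6%, beside 1.03% of 19504 named genes in either direction). The list was chosen with earlier results of these data known and includes Cyp7b1 itself, so this share is not a test. Beside Cyp7b1, the gene that fell was the fatty acid elongase Elovl3. It read 10.68 and 10.74 in Tm7sf2-KO, against 11.66 and 11.70 in WT (change -0.97, SE 0.08, limma adjusted p = 5.06e-04). The steroid dehydrogenase Hsd3b5 (-0.42, adjusted p = 0.037) and the organic anion transporter Slco1a1 (-0.49, adjusted p = 0.02) passed 5% FDR alone. Gstp1 read -0.25, Cyp2d9 0.03 and Selenbp2 0.16, none of them past either threshold. These 5 are all the rest of the 7 measured, and the choice to name them came after their values were seen. The median of the list was -0.42, beside 0.01 for all named genes.

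The repressor Nr0b2 also fell. Its probe set read 9.106 and 8.999 in Tm7sf2-KO livers, against 9.927 and 9.854 in WT livers. Both Tm7sf2-KO arrays lay 0.748 or more below both WT arrays. Nr0b2 averaged 9.05 ± 0.08 in Tm7sf2-KO and 9.89 ± 0.05 in WT (SD, n = 2 each). The change was thus -0.84, or 1.79-fold lower (SE 0.08, 95% confidence interval from -1.02 to -0.65, adjusted p = 0.00184 in limma), the 37th deepest fall on the array. Nr0b2 had 1 probe set, so no second reading of the gene was at hand. In bulk liver, fewer cells expressing a gene and less RNA of it per cell cannot be told apart, here and at every other gene.

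Nr5a2, the partner of Nr0b2 on the synthesis genes, was read differently by its 3 probe sets. At 1420410_at the values were 9.75 and 9.85 in Tm7sf2-KO, against 9.07 and 9.01 in WT. It rose by 0.76, or 1.69-fold (SE 0.08, 95% confidence interval from 0.57 to 0.94, adjusted p = 0.00285 in limma), with no overlap of the genotypes and rank 38 among rises. Probe set 1456521_at read 9.14 and 9.06 in Tm7sf2-KO, against 8.72 and 8.85 in WT, and its change of 0.32 (SE 0.08, 95% confidence interval from 0.13 to 0.51) did not pass (limma adjusted p = 0.131). The third, 1449706_s_at, read 8.54 and 8.35 in Tm7sf2-KO and 8.65 and 8.12 in WT, so that both Tm7sf2-KO arrays lay between the WT arrays. Its change was 0.06 (SE 0.15, 95% confidence interval from -0.28 to 0.40, adjusted p = 0.916 in limma). The interval of 1420410_at did not overlap that of either other probe set, and the difference between probe sets was not tested. RefSeq gives this gene more than one start, and which transcript each probe set reads is not stated in the files. With the mean of the 3 probe sets in place of each, Nr5a2 read 0.38 higher in Tm7sf2-KO (limma adjusted p = 0.0478), under the fold threshold, and 1420410_at itself was at 0.39 with the arrays level on the added controls (limma adjusted p = 0.00189).

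Cyp7a1, the rate-limiting enzyme of the classic route and a gene that Nr0b2 represses, lay higher in Tm7sf2-KO at both its probe sets. Probe set 1438743_at read 10.68 and 10.73 in Tm7sf2-KO livers, against 10.24 and 10.17 in WT livers. It averaged 10.70 ± 0.03 in Tm7sf2-KO and 10.20 ± 0.05 in WT (SD, n = 2 each) and rose by 0.50, or 1.42-fold (SE 0.08, 95% confidence interval from 0.32 to 0.68, adjusted p = 0.02 in limma), just inside the fold threshold. Probe set 1422100_at read 8.87 and 8.91 in Tm7sf2-KO, against 8.58 and 8.62 in WT. The genotypes did not overlap there either, but the change of 0.29 (SE 0.08, 95% confidence interval from 0.12 to 0.47) did not pass (limma adjusted p = 0.133), and it turned to -0.070 with the arrays level on the added controls. The call at 1438743_at ended after a second quantile normalization (0.48, limma adjusted p = 0.0201), with the mean of both probe sets (0.40, limma adjusted p = 0.0214) and on the added controls (0.14, limma adjusted p = 0.156).

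**Figure D2:**
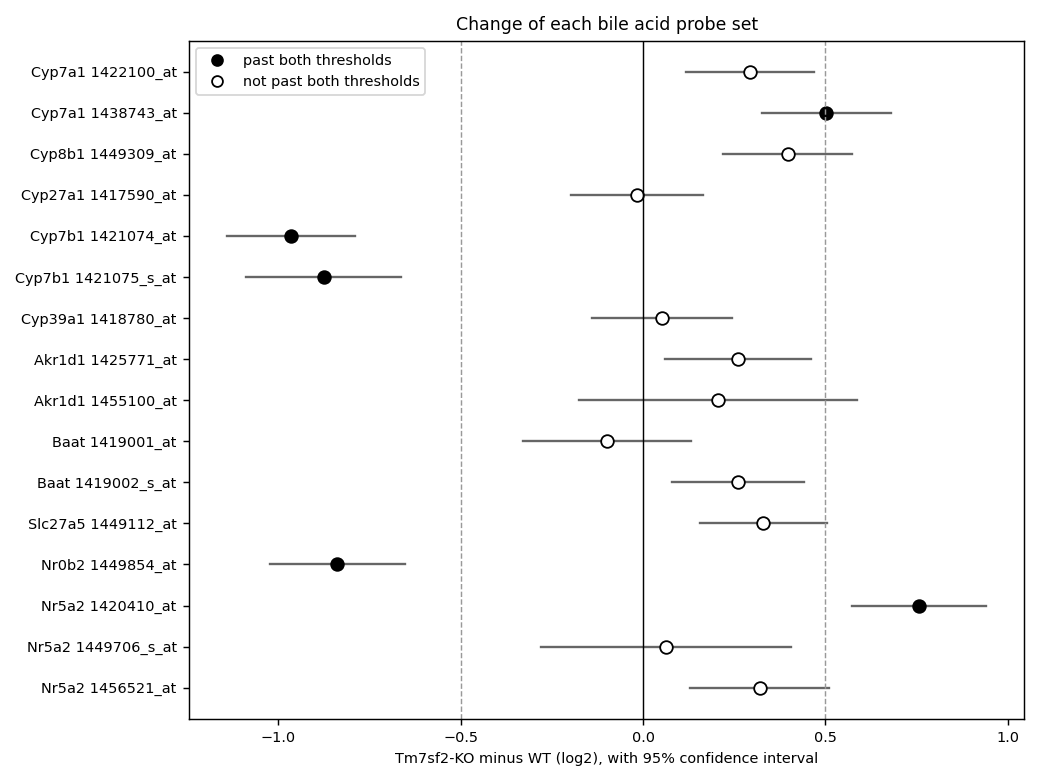
Change of each of the 16 probe sets, Tm7sf2-KO minus WT on the log2 scale, with 95% confidence intervals from limma (n = 2 arrays per genotype); filled points passed both thresholds and dashed lines stand at an absolute log2 change of 0.5. The 2 Cyp7b1 probe sets (-0.96 and -0.88) and Nr0b2 (-0.84) lie left of the dashed line, and of the 3 Nr5a2 probe sets 1 lies right of it (0.76, against 0.32 and 0.06); with the arrays level on added controls 8 of the 16 change sign, none of the 5 that passed among them.

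Cyp8b1, which sets the share of cholic acid in the pool and is another target of Nr5a2 and Nr0b2, read 11.69 and 11.77 in Tm7sf2-KO, against 11.35 and 11.32 in WT. The genotypes were apart by 0.347. It missed 5% FDR with an adjusted p of 0.0503 in limma, and its change of 0.40 (SE 0.08, 95% confidence interval from 0.22 to 0.57) was short of the fold threshold as well. On the added controls the change was 0.03, and its adjusted p ran from 0.00767 with a variance trend to 0.727 on those controls.

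The remaining P450 enzymes showed no change past the threshold. Cyp27a1, the mitochondrial sterol hydroxylase that opens the acidic route, read 11.91 and 11.84 in Tm7sf2-KO and 11.86 and 11.93 in WT, and the genotypes overlapped. Its change was -0.02, and the 95% confidence interval from -0.20 to 0.16 lay within 0.5 of 0 (adjusted p = 0.96 in limma). With the arrays level on the added controls it read -0.38, past 5% FDR but short of the fold threshold (limma adjusted p = 0.00171). Cyp39a1, the hydroxylase of an oxysterol made in brain, read 8.30 and 8.15 in Tm7sf2-KO and 8.14 and 8.21 in WT, again with overlap. Its change was 0.05, with a 95% confidence interval from -0.14 to 0.24 (adjusted p = 0.868 in limma). On the added controls Cyp39a1 read -0.31, also past 5% FDR but short of the fold threshold (limma adjusted p = 0.00565).

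The enzymes of ring reduction and conjugation had values that were mostly higher in Tm7sf2-KO without passing the test. Slc27a5, the ligase that activates bile acids with coenzyme A, read 13.05 and 13.08 in Tm7sf2-KO, against 12.75 and 12.71 in WT. Its change was 0.33 (SE 0.08, 95% confidence interval from 0.16 to 0.50, adjusted p = 0.0915 in limma), and the genotypes did not overlap. Baat, which joins the activated bile acid to taurine or glycine, gave opposite signs at its 2 probe sets. Baat 1419002_s_at read 10.07 and 10.16 in Tm7sf2-KO, against 9.84 and 9.88 in WT (change 0.26, SE 0.08, limma adjusted p = 0.198). Baat 1419001_at read 8.45 and 8.36 in Tm7sf2-KO and 8.37 and 8.64 in WT (change -0.10, SE 0.10, limma adjusted p = 0.761), with overlap, and the intervals of the 2 probe sets overlapped. Akr1d1, the reductase that bends the sterol ring into the bile acid shape, read 9.48 and 9.32 in Tm7sf2-KO, against 9.19 and 9.09 in WT, at 1425771_at (change 0.26, SE 0.09, limma adjusted p = 0.243). At 1455100_at it read 9.28 and 9.40 in Tm7sf2-KO and 8.82 and 9.46 in WT, where the WT arrays were the furthest apart of any pair among the 16 probe sets (change 0.21, SE 0.17, limma adjusted p = 0.686). On the added controls Slc27a5 (-0.034), Baat 1419002_s_at (-0.10) and both Akr1d1 probe sets (-0.10 and -0.16) turned to the other sign.

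Across the 16 probe sets the genotypes did not overlap at 11, but 41.1% of all probe sets had arrays that did not overlap, which is the share to set this count against. An unadjusted p under 0.05 was reached by 11 of the 16, beside 13% of all probe sets. At 5% FDR alone the same number passed as with the fold threshold, 5 of 16, beside 1.25% of all.

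**Figure D3:**
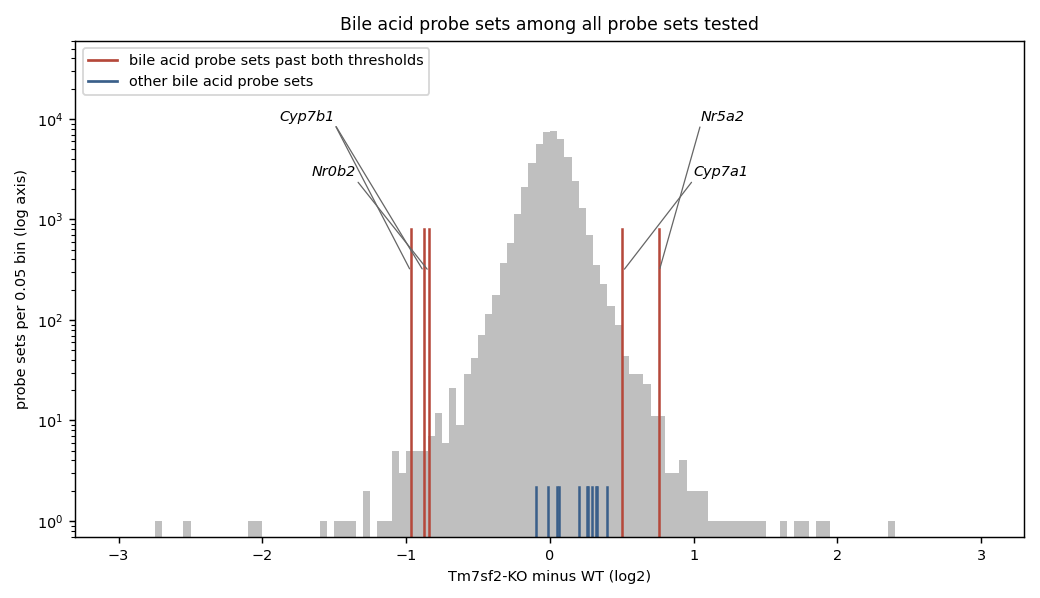
Histogram of the change of all 45037 probe sets, Tm7sf2-KO minus WT on the log2 scale, in bins of 0.05 with a logarithmic vertical axis. Tall red lines mark the 5 bile acid probe sets past both thresholds (Cyp7b1 -0.96 and -0.88, Nr0b2 -0.84, Cyp7a1 0.50, Nr5a2 0.76) and short blue lines the other 11.

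The other genes of the pathway were taken from 3 lists, which were chosen with earlier results of these data known. A gene with several probe sets was read at the one with the highest mean. Among 11 other enzymes of synthesis and their electron donors, 0 met both thresholds in limma, beside 1.03% of named genes, and 3 reached an unadjusted p under 0.05, beside 15.2%. Those with the smallest adjusted p were Cyp2c70, which makes muricholic acids in mice (-0.21, adjusted p = 0.283), the brain-type cholesterol hydroxylase Cyp46a1 (0.19, adjusted p = 0.326) and the racemase Amacr of side-chain shortening (0.21, adjusted p = 0.348). A dimmer Cyp2c70 probe set read -0.47 (limma adjusted p = 0.0268) and so passed 5% FDR alone. The median of this list was 0.03. Of the 13 genes listed, Hsd3b7 and Scp2 were not found under their names.

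Among 28 regulators of the pathway 3 rose and 1 fell (14.3%, beside 1.03% of named genes). An unadjusted p under 0.05 was reached by 14, beside 15.2% of named genes. The list was chosen with earlier results of these data known, so these shares do not test whether regulators changed more often than other genes. Dbp, a clock-controlled activator of Cyp7a1 known from rodents, read 8.84 and 9.06 in Tm7sf2-KO, against 7.11 and 7.01 in WT (change 1.89, SE 0.10, limma adjusted p = 3.30e-05), and 1.24 at its other probe set. Nfil3, a repressor that competes with Dbp for the same DNA element, read 8.68 and 8.57 in Tm7sf2-KO, against 9.23 and 9.33 in WT (change -0.65, SE 0.08, limma adjusted p = 0.00719). The coactivator Ppargc1a read 8.64 and 8.60 in Tm7sf2-KO, against 7.64 and 7.82 in WT (change 0.89, SE 0.09, limma adjusted p = 0.00184), with changes of only 0.15 to 0.29, short of the thresholds, at 4 further probe sets. Ppara, the fatty acid receptor, read 10.81 and 10.77 in Tm7sf2-KO, against 10.09 and 10.24 in WT (change 0.62, SE 0.08, limma adjusted p = 0.00962). At all 4 the genotypes did not overlap, as at 41.1% of all probe sets, and genes past both thresholds were likely to be so. Ppara was at 0.26 on the added controls (limma adjusted p = 0.0149) and Ppargc1a at 0.37 as the mean of its probe sets (limma adjusted p = 0.0251), each then short of the fold threshold. The xenobiotic receptor Nr1i2 passed 5% FDR alone at its brightest probe set (0.43, limma adjusted p = 0.0492). Its other probe set, nearly as bright, read 0.23 and did not pass (limma adjusted p = 0.266). The FXR gene Nr1h4 read 0.22 (adjusted p = 0.304), the receptor Fgfr4, through which the gut hormone Fgf15 represses Cyp7a1, read -0.33 (adjusted p = 0.109), and its partner Klb read 0.37 (adjusted p = 0.0896); these and Nr1i2 were chosen after their values were seen, and none met both thresholds. The median of the list was 0.14.

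Among 14 transporters of bile acids and biliary lipids 0 met both thresholds in limma, beside 1.03% of named genes, and 7 reached an unadjusted p under 0.05, beside 15.2%. Slco1a1, a sinusoidal uptake carrier, read 11.27 and 11.22 in Tm7sf2-KO, against 11.75 and 11.73 in WT (change -0.49, SE 0.08, limma adjusted p = 0.02), and -0.49 at its other probe set as well, so that it passed 5% FDR but not the fold threshold. The canalicular phospholipid flippase Abcb4 (0.41, adjusted p = 0.0519) and the basolateral export pump Abcc3 (0.38, adjusted p = 0.052) followed. The median of this list was 0.04. Setting the arrays level on the added controls lowers each change by 0.364, which puts the medians of all 3 lists below 0.

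**Figure D4:**
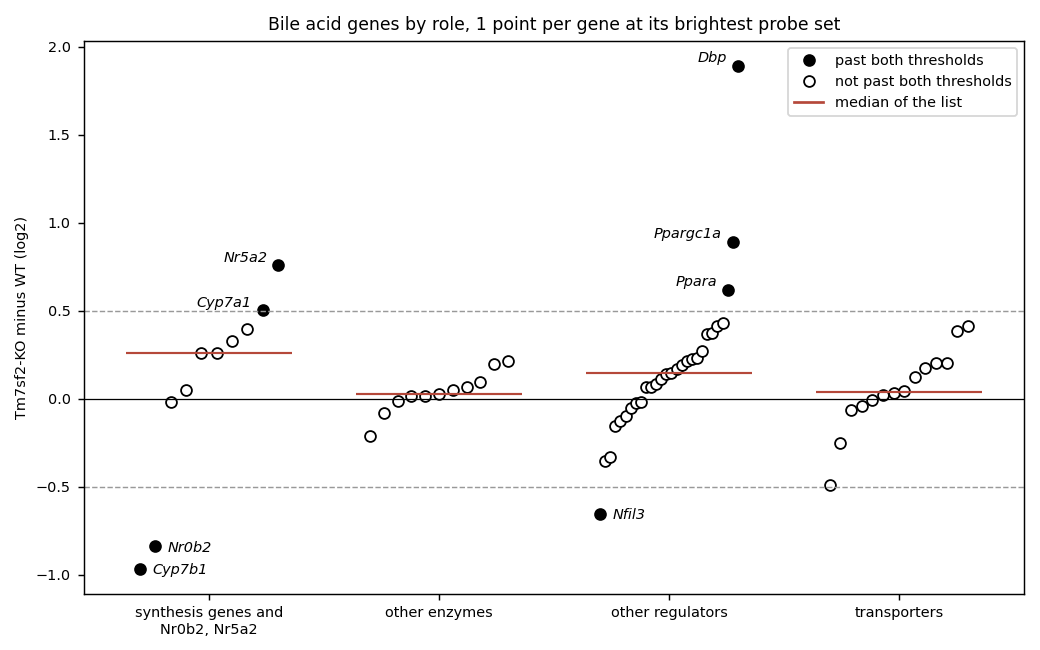
Change of each gene, Tm7sf2-KO minus WT on the log2 scale, at its brightest probe set, by role; filled points passed both thresholds, dashed lines stand at an absolute log2 change of 0.5 and red lines at the list medians. The medians were 0.26 for the 10 synthesis genes with Nr0b2 and Nr5a2, 0.03 for 11 other enzymes, 0.14 for 28 other regulators and 0.04 for 14 transporters; centring on the added controls lowers each by 0.364 and below 0.

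Cell type markers were read beside these results, first at the brightest probe set of each gene. The 51 markers measured were of 9 cell types, among them hepatocytes of both zones, cholangiocytes, Kupffer, endothelial, stellate, lymphoid and erythroid cells. Of these 51 markers 0 met both thresholds in limma, beside 1.03% of named genes, and 10 reached an unadjusted p under 0.05, beside 15.2%. Over all 77 probe sets of these markers 0 met both thresholds, beside 0.706% of all probe sets. At 5% FDR alone 2 passed, beside 1.25% of all probe sets, and the changes ran from -0.47 to 0.47. The pair that passed 5% FDR stood at these ends and came from the same list of 6 periportal hepatocyte markers, Pck1 at its dimmer probe set (-0.47, limma adjusted p = 0.0285) and Hal (0.47, limma adjusted p = 0.0259). The brighter Pck1 probe set read -0.31, Gls2 0.33, Cdh1 -0.19, Cyp2f2 -0.06 and Sds -0.01, and the median of the periportal list was -0.03. Markers were picked out for naming after their values were seen. Albumin read 14.76 and 14.70 in Tm7sf2-KO and 14.68 and 14.72 in WT, and the arrays thus carried the liver's defining transcript at the top of their range.

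Genes outside the set with the most similar pattern over the 4 arrays were found by the Euclidean distance between log2 values after each probe set's own mean was taken off. Nearest to Cyp7b1 were Cdc20 (distance 0.0392), Tff3 (0.0849) and Elovl3 (0.0884). Nearest to Nr0b2 were Slc25a30 (0.0671), Mki67 (0.0956) and Tcf24 (0.109). Csrp3 (0.026), Atp9a (0.0611) and Aqp8 (0.0668) were nearest to Nr5a2, and Ubd (0.0329), Xlr4b (0.0399) and Sfxn1 (0.0402) to Cyp7a1. Over 4 arrays of 2 genotypes a small distance means little more than changes of like size.

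**Figure D5:**
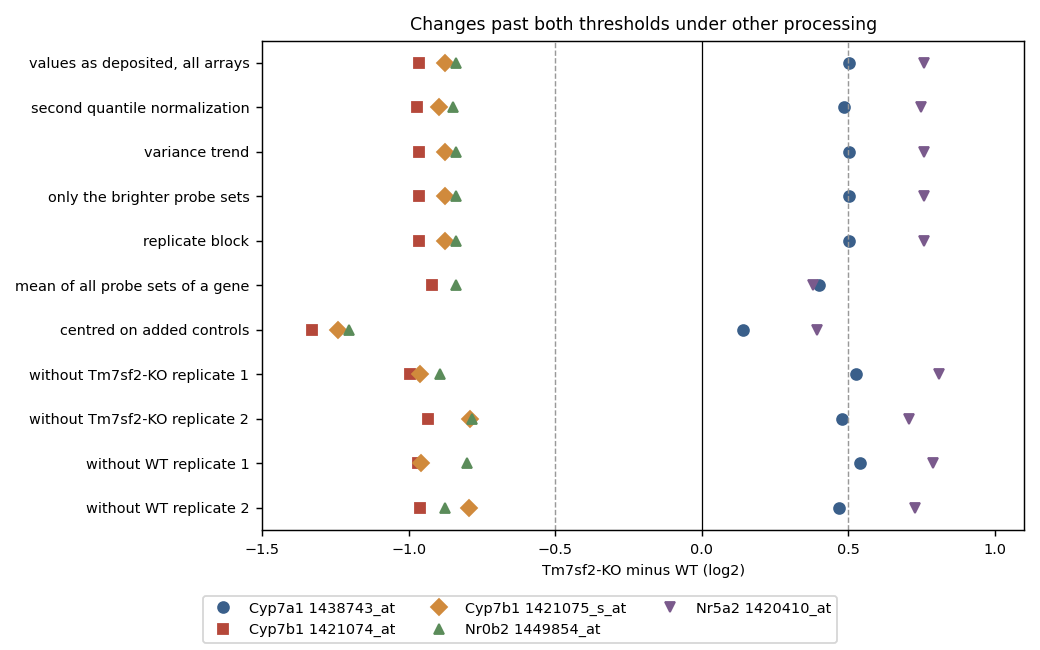
Change of the 5 probe sets past both thresholds, Tm7sf2-KO minus WT on the log2 scale, with the values as deposited and under each other processing; dashed lines stand at an absolute log2 change of 0.5. Each of the 5 kept its sign in every row that holds it, while Cyp7a1 ran from 0.14 to 0.54 and Nr5a2 from 0.38 to 0.81. Points in the row of gene means are means over all probe sets of a gene. That row has no point for Cyp7b1 1421075_s_at, and the Nr5a2 low of 0.38 comes from it.

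With 1 array left out, limma on 1 residual degree of freedom called 0 of 45037 probe sets, Tm7sf2 included, and 3326 to 4217 had an unadjusted p under 0.05. The calls on Cyp7b1, Nr0b2, Nr5a2 and Cyp7a1 were thus lost without any one of the 4 arrays, while their changes stayed at -0.99 to -0.93 and -0.96 to -0.79 for the Cyp7b1 probe sets, -0.89 to -0.78 for Nr0b2, 0.71 to 0.81 for Nr5a2 and 0.47 to 0.54 for Cyp7a1.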

How the data were processed

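Liver RNA was hybridized to 4 one-colour Affymetrix MOE430 v2 arrays, with genotype and replicate number read from the labels. The authors deposited 1 log2 value for each probe set on each array, quantile normalized per the study's methods. The processing notes name affy and limma, but how background was corrected and probes were summarised is not stated there. A further deposited table supplied gene names. It also holds the authors' own log2 ratio of KO over WT and p-value columns, which were not used.

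After 64 control probe sets were left out, limma 3.58.1 (R 4.3.3) was fitted to Tm7sf2-KO and WT with lmFit, then eBayes, without covariates, and tested two-sided on 2 residual and 7.3 prior degrees of freedom. No exact permutation test was run, because 4 arrays split evenly allow no p below 0.333. Array files hold no counts, and the number of arrays limits the precision. Replicate arrays correlated at 0.994 in both genotypes, against 0.99 to 0.991 between them.

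The members, gene lists and promoter motifs were chosen with earlier results of these data known. Genes named by rule are all members, list genes past both thresholds, where a list had none, up to 3 of lowest adjusted p, and the nearest patterns. Tm7sf2 was named as the check of the genotype. Further list genes and cell type markers were named after their values were seen. Promoter windows came from RefSeq (GRCm38.p6). Other settings tried were a second quantile normalization, centring on added controls, a variance trend, brighter probe sets alone, gene means, a replicate block, 5% FDR alone, a higher fold threshold and leaving out each array.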

Additional observations from a re-analysis of the deposited data

Results flagged for a closer look

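The added control transcripts read higher on the Tm7sf2-KO arrays. They were left out of the probe sets tested and served only to set the arrays level in the setting centred on them. Over 45 control probe sets the mean was 8.93 and 8.91 on the Tm7sf2-KO arrays, against 8.53 and 8.58 on the WT arrays, a difference of 0.364 on the log2 scale. Setting the arrays level on these controls lowers the change of each gene by this amount, and why the controls differed was not tested.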

How the results depend on the processing

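Of the 5 probe sets past both thresholds, 5 stayed past them with a variance trend, over the brighter probe sets alone and with the replicate block, and 4 after a second quantile normalization, with 1 rise in place of 2 (Cyp7a1 at 0.48). Centred on added controls 3 passed, all of them lower, with 0 rises (Cyp7a1 0.14, Nr5a2 0.39). At an absolute log2 change of at least 1 the counts were 0 in all and 0 in each direction. With gene means 2 of the 4 genes passed, Cyp7b1 (-0.92) and Nr0b2 (-0.84). Cyp7a1 (0.40) and Nr5a2 (0.38) were then short of the fold threshold. Without any 1 array the counts were 0 to 0 for all, higher and lower, and 0 to 0 for the regulators against 4 with all arrays. Centring on added controls gave 1 call among the other enzymes (Cyp2c70, -0.57) and 2 among the transporters (Slco1a1, -0.86, and Atp8b1, -0.61), where there were 0. Among the regulators it gave 6 against 4, with Fgfr4 (-0.69), Foxa2 (-0.72) and Nr1h2 (-0.52) called and Ppara (0.26) lost, and gene means gave 3, with Ppargc1a (0.37) lost. It also turned the sign of Cyp7a1 1422100_at (-0.070), Cyp39a1 (-0.31), Akr1d1 (-0.10 and -0.16), Baat 1419002_s_at (-0.10), Slc27a5 (-0.034) and Nr5a2 1449706_s_at and 1456521_at (-0.30 and -0.044). Over all probe sets it called 26 higher and 5513 lower, against 171 and 147. The cause was not tested. With 1 array left out the sign held at 11 of 16 probe sets, and the others ran from -0.053 to 0.020 for Cyp27a1, -0.022 to 0.12 for Cyp39a1, -0.12 to 0.53 for Akr1d1 1455100_at, -0.24 to 0.038 for Baat 1419001_at and -0.21 to 0.33 for Nr5a2 1449706_s_at. The deviations of arrays with the same replicate number correlated at -0.0368. This shows no strong shared deviation, but it cannot tell whether arrays of the same number were handled together. With the number as a block 305 probe sets were called in place of 318, with the 5 bile acid calls among them.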
